A study of Homo sapiens with 12 samples.

Results

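Transcripts of 10 genes that damp or feed mitogen-activated protein kinase (MAPK) signalling were followed in 2 human endometrial cancer lines given an excess of copper. The genes are the dual-specificity phosphatases DUSP1, DUSP4, DUSP5, DUSP6, DUSP8, DUSP10 and DUSP16, the Sprouty proteins SPRY2 and SPRY4, and the kinase MAP2K6. They were found by symbol among the 20332 genes of the expression table, and all 10 were present. They had been picked with the copper response of these same libraries known, so their copper values below are a description. Where a call is given for a copper value of these genes, it describes that value and is no independent test.

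The libraries came from KLE cells after 24 h in 200 µM CuCl2, untreated KLE cells, Ishikawa cells after 24 h in 200 µM CuCl2, and untreated Ishikawa cells. Each of the 4 groups held 3 libraries, which the labels call independent biological replicates, and p-values therefore measure the spread between such replicates of 1 line. The labels describe the control cells both as untreated and as given vehicle, and the 2 lines are established cell lines grown in the same medium. Only poly(A)-selected RNA from whole cultures was sequenced, so fewer expressing cells and less RNA per cell cannot be told apart.

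MAP kinases are switched on by dual phosphorylation at the end of a kinase relay, and the MAP kinase phosphatases (MKPs) of the DUSP family remove those phosphates. Most MKPs and Sprouty proteins are themselves transcribed in response to MAPK signalling, which makes them feedback inhibitors and makes transcripts such as DUSP6 and SPRY4 common readouts of the ERK branch. The family divides by place and substrate: DUSP1, DUSP4 and DUSP5 are inducible nuclear enzymes, DUSP6 is a cytoplasmic enzyme that prefers ERK, and DUSP8, DUSP10 and DUSP16 prefer the stress kinases JNK and p38. SPRY2 and SPRY4 inhibit signalling between receptor tyrosine kinases and ERK, while MAP2K6 (MKK6) phosphorylates and activates p38.

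Libraries held 14050275 to 25057003 counts, the deepest being untreated Ishikawa replicate 2. The epithelial markers EPCAM, CDH1, KRT8, KRT18 and KRT19 and the Müllerian factor PAX8 were present in all 4 groups, with group means of at least 155 TPM (a level corrected for transcript length and depth). The steroid receptor ESR1 was near 0, with a group mean of at most 0.386 TPM, and so was PGR. Summed over 6 fibroblast markers, libraries lay between 14.9 and 31.5 TPM in copper-treated KLE cells and between 22.9 and 50.8 TPM in untreated ones. In Ishikawa cells they lay between 16.3 and 37.7 TPM with copper and between 6.82 and 30.1 TPM without. Each of the 6 markers was above 0 in some library of every group, but not in every library. Over the untreated Ishikawa libraries DCN ran from 0.0 to 13.6 TPM and LUM from 0.0 to 3.9 TPM. The 5 leukocyte markers summed to at most 2.39 TPM, and MS4A1 or LST1 was at 0 in 3 of the groups. The 4 endothelial markers summed to 1.88 to 2.94 TPM in copper-treated KLE cells and 2.64 to 4.04 in untreated KLE cells, against 2.47 to 3.64 in copper-treated and 1.35 to 2.14 in untreated Ishikawa cells. These last groups do not overlap in Ishikawa cells, and the part of this list in the results was not tested.

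Promoter sequence is shown for the 3 genes whose contrasts the results turn on: DUSP1 and DUSP8, which were raised mainly in one line, and MAP2K6, the gene with the lowest copper to untreated ratio of those tested in both lines. Each run holds the 250 bases before the annotated start in RefSeq on GRCh38.p14, written 5′ to 3′ on the gene's strand. Capitals mark exact matches, on either strand, to the cAMP response element (CRE) TGACGTCA, which CREB and ATF factors bind, and to the metal response element core, searched as TGCACNC or TGCGCNC.
DUSP1 (chr5:172771196-172771445, minus strand): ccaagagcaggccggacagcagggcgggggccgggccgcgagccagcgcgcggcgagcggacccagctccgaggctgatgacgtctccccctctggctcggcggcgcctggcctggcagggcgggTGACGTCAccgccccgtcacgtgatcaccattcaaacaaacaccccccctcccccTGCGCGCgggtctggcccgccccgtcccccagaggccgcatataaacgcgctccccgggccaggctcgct
DUSP8 (chr11:1572272-1572521, minus strand): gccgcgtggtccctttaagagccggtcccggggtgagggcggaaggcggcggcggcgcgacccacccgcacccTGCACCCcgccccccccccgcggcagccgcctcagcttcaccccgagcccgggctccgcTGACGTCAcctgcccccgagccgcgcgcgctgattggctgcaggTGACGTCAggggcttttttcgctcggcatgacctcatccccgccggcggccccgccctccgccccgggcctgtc
MAP2K6 (chr17:69414447-69414696, plus strand): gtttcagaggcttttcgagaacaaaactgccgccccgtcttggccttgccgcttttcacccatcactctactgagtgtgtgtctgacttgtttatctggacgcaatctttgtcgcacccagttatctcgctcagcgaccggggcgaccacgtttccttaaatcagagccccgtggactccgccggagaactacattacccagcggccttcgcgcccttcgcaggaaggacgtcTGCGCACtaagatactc

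The DUSP1 window held 1 CRE, 125 to 118 bases before the start, and the DUSP8 window held 2, at 118 to 111 and 74 to 67 bases before it. A CRE was present in 1.77% of the 27305 promoter windows of that length, and 2 or more in 0.0586% of them. The other 6 of the 8 genes searched (DUSP6, DUSP10, DUSP16, SPRY2, SPRY4 and MAP2K6) held none. The promoters of DUSP4 and DUSP5 were not searched. A metal response element core was found in 5 of the 8, which are DUSP1, DUSP8, DUSP16, SPRY2 and MAP2K6, against 24.7% of all windows. Neither the AP-1 site TGANTCA (6.6% of windows) nor the heat shock element (0.439%) occurred in any of the 8, and the antioxidant response element TGACNNNGC (11.0%) occurred in DUSP1 and SPRY4. In DUSP1 that element lies next to the CRE, at 115 to 107 bases before the start. A match of letters is a description of the sequence and not a bound site. The motifs were chosen with the promoters in view, so nothing is read from the shares above. DUSP8 has a further annotated start upstream, so that the gene reaches from 1554051 to 1572848 on chromosome 11 and spans the window shown.

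Copper was followed by opposite shifts inside the phosphatase family. In untreated cells of both lines DUSP6 was by far the most abundant of the 10 genes, and with copper it was lower in every library, together with SPRY2, SPRY4 and MAP2K6. DUSP4 and DUSP5 were higher with copper in both lines. DUSP1 and DUSP8 were several-fold higher in Ishikawa cells but changed little in KLE cells.

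**Figure D1:**
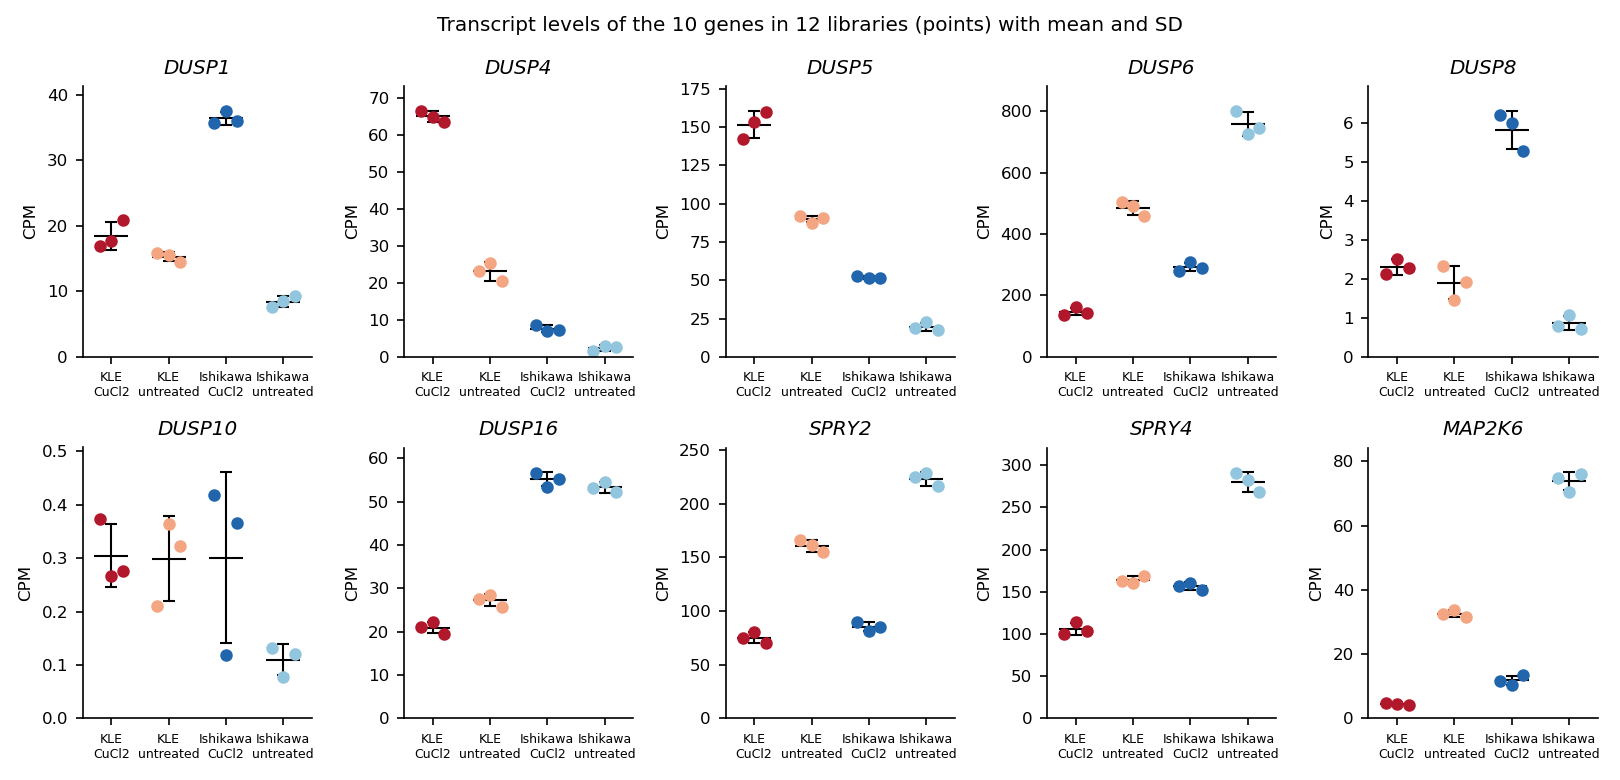
CPM (counts scaled to library size, vertical axis, linear from 0) of each gene in 3 libraries per group (points), with the mean (horizontal line) and SD (bar). DUSP6, SPRY2, SPRY4 and MAP2K6 lie lower in the copper-treated group of both lines, DUSP4 and DUSP5 lie higher, and DUSP10 stands below 0.5 CPM throughout.

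Among the inducible nuclear phosphatases, DUSP1 is induced by many stresses and acts on p38, JNK and ERK. Levels of 1 gene are given as CPM, its counts scaled to library size with TMM factors. In KLE cells DUSP1 had 16.9, 17.7 and 20.9 CPM with copper, against 15.8, 15.5 and 14.5 CPM untreated. In Ishikawa cells it had 35.7, 37.6 and 36.0 CPM with copper, against 7.57, 8.45 and 9.22 CPM untreated. All copper-treated libraries stood above the untreated ones of their line, by a wide gap in Ishikawa cells and a narrow one in KLE cells. The log2 fold change was 0.28 ± 0.09 (SE) in KLE cells and 2.17 ± 0.09 in Ishikawa cells. The KLE call rests on single libraries: it was made at an adjusted p under 0.05 (edgeR quasi-likelihood) but not without copper-treated KLE replicate 3, where it was 0.18, nor without untreated KLE replicate 3, where it was 0.24.

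DUSP4 encodes a nuclear phosphatase that ERK signalling induces. Its 3 copper-treated KLE libraries held 66.5, 64.8 and 63.5 CPM, against 23.3, 25.4 and 20.5 CPM in the untreated ones. Copper-treated Ishikawa libraries held 8.59, 7.05 and 7.17 CPM, against 1.45, 3.02 and 2.53 CPM untreated. The lines thus sat at different heights, with every KLE library above every Ishikawa library, and copper-treated libraries were the higher ones in each line. The log2 fold change was 1.49 ± 0.07 in KLE cells and 1.72 ± 0.22 in Ishikawa cells, where counts were low.

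DUSP5, a nuclear phosphatase specific for ERK, had 142, 153 and 160 CPM in copper-treated KLE cells, against 91.7, 87.6 and 90.7 CPM in untreated ones. In Ishikawa cells the values were 53.0, 51.6 and 51.3 CPM with copper, against 18.6, 22.5 and 17.2 CPM untreated. No copper-treated library overlapped an untreated one of the same line, and untreated KLE cells already stood above copper-treated Ishikawa cells. The log2 fold change was 0.76 ± 0.04 in KLE cells and 1.46 ± 0.09 in Ishikawa cells. Processed pseudogenes of DUSP5 and DUSP8 exist in the annotation, and how the authors' quantification treated reads that fit both was not tested.

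DUSP6 is the cytoplasmic, ERK-selective member. It had 137, 161 and 144 CPM in copper-treated KLE cells, against 504, 491 and 458 CPM untreated, and 281, 308 and 289 CPM in copper-treated Ishikawa cells, against 802, 726 and 745 CPM untreated. The 4 groups did not overlap, and their order was untreated Ishikawa, untreated KLE, copper-treated Ishikawa, copper-treated KLE. The log2 fold change was -1.72 ± 0.06 in KLE cells and -1.32 ± 0.05 in Ishikawa cells.

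Of the 3 phosphatases that prefer JNK and p38, DUSP8 was scarce. It had 2.12, 2.52 and 2.27 CPM in copper-treated KLE cells, against 2.32, 1.46 and 1.93 CPM in untreated ones, and these groups overlapped. Copper-treated Ishikawa cells had 6.2, 6.0 and 5.27 CPM, from 104, 102 and 72 counts, against 0.79, 1.07 and 0.723 CPM, from 12, 28 and 12 counts, in untreated ones. The Ishikawa groups were far apart, and the treated one was the highest of the 4 groups. The log2 fold change was 0.28 ± 0.26 in KLE cells, which was not called, and 2.77 ± 0.23 in Ishikawa cells. Without untreated KLE replicate 1 the KLE value was 0.44, and without untreated KLE replicate 2 it was 0.11, not called either time.

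DUSP16 lay at 21.1, 22.2 and 19.5 CPM in copper-treated KLE cells, against 27.6, 28.5 and 25.7 CPM in untreated ones. Copper-treated Ishikawa cells had 56.7, 53.4 and 55.3 CPM and untreated ones 53.2, 54.5 and 52.1 CPM. The Ishikawa groups overlapped and stood above both KLE groups, which did not overlap. DUSP16 had a log2 fold change of -0.38 ± 0.08 in KLE cells, and of 0.11 ± 0.06 in Ishikawa cells, which was not called and became -0.05 when counts were scaled to library totals alone. DUSP10 gave only 2 to 7 counts per library in any group. KLE cells had 6, 4 and 4 counts with copper, against 3, 6 and 5 untreated, and Ishikawa cells had 7, 2 and 5 counts with copper, against 2, 2 and 2 untreated. The gene did not pass the filter on low counts, and could not be compared at this depth.

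SPRY2 and SPRY4 encode feedback inhibitors of receptor tyrosine kinase signalling. SPRY2 had 74.8, 80.8 and 69.9 CPM in copper-treated KLE cells, against 166, 161 and 155 CPM untreated, and 89.5, 81.2 and 85.3 CPM in copper-treated Ishikawa cells, against 225, 228 and 216 CPM untreated. SPRY4 had 99.5, 114 and 104 CPM in copper-treated KLE cells, against 163, 160 and 169 CPM untreated, and 157, 161 and 152 CPM in copper-treated Ishikawa cells, against 291, 282 and 268 CPM untreated. For both genes the copper-treated libraries lay below all untreated ones of their line, and for SPRY4 the copper-treated Ishikawa group overlapped the untreated KLE group. The log2 fold changes of SPRY2 were -1.09 ± 0.05 in KLE cells and -1.33 ± 0.05 in Ishikawa cells. Those of SPRY4 were smaller, at -0.63 ± 0.04 in KLE cells and -0.78 ± 0.05 in Ishikawa cells.

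MAP2K6, a p38 activator, had 4.79, 4.31 and 4.27 CPM in copper-treated KLE cells, against 32.6, 33.7 and 31.5 CPM in untreated ones. Copper-treated Ishikawa cells had 11.6, 10.5 and 13.4 CPM, against 74.8, 70.6 and 76.0 CPM untreated. The groups were widely separated in both lines, and untreated KLE cells still held more than copper-treated Ishikawa cells. The log2 fold change was -2.87 ± 0.10 in KLE cells and -2.59 ± 0.09 in Ishikawa cells.

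**Figure D2:**
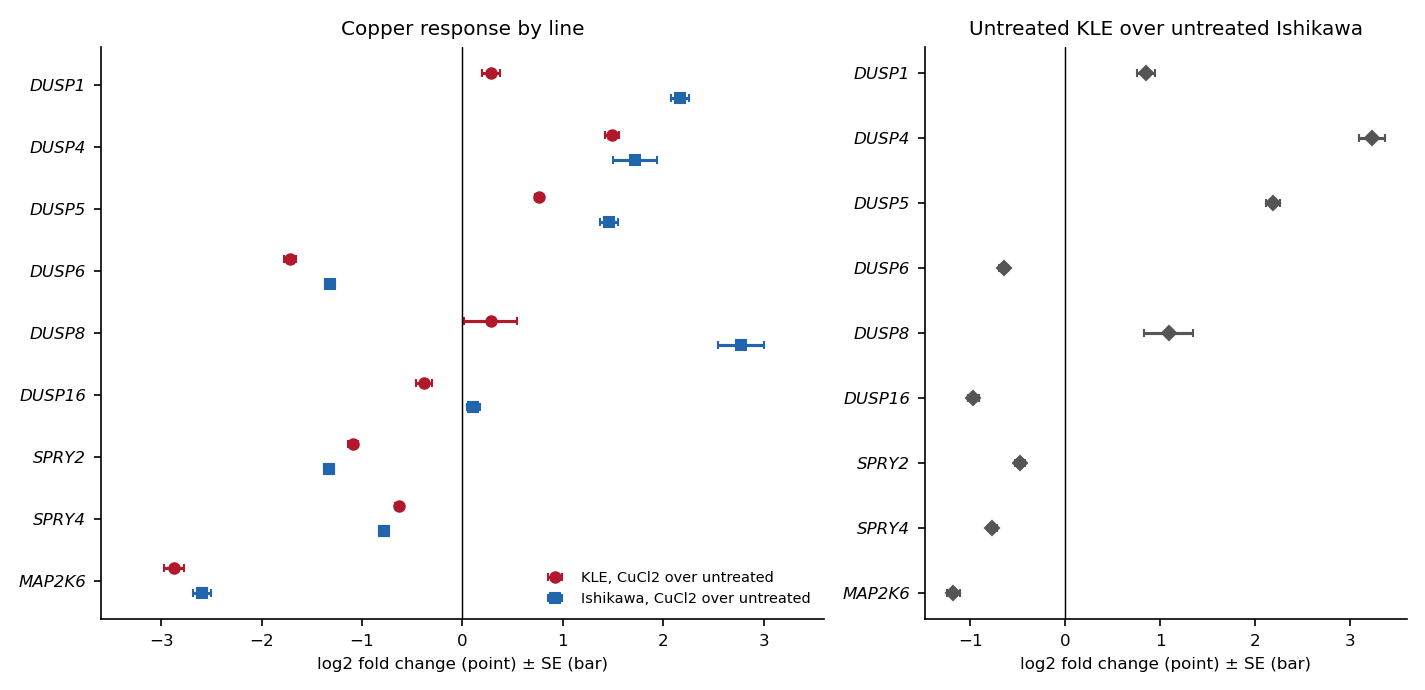
Log2 fold changes (horizontal axis, points) with SE (bars) of the 9 genes that passed the filter on low counts. The left plot gives copper-treated over untreated cells of KLE (circles) and Ishikawa (squares), where DUSP1 and DUSP8 sit near 0.28 in KLE cells and above 2 in Ishikawa cells, and the right plot gives untreated KLE over untreated Ishikawa cells, from -1.18 for MAP2K6 to 3.23 for DUSP4.

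In KLE cells 3 of the 9 members tested were called higher with copper (DUSP1, DUSP4 and DUSP5), 5 lower (DUSP6, DUSP16, SPRY2, SPRY4 and MAP2K6) and 1 was not called, where 50.8% of all 13031 genes tested were called, 25.6% higher and 25.2% lower. In Ishikawa cells 4 were called higher (DUSP1, DUSP4, DUSP5 and DUSP8), 4 lower (DUSP6, SPRY2, SPRY4 and MAP2K6) and 1 was not called, where 69.1% of 13359 genes were called, 33.8% higher and 35.3% lower. Of the Ishikawa calls over all genes 48.9% were higher, and 35.7% when counts were scaled to library totals alone. The same members, by the same directions, were those whose copper-treated libraries did not overlap the untreated ones: 3 higher and 5 lower in KLE cells, where 28.4% of genes did so upward, 28.3% downward and 56.7% either way, and 4 higher and 4 lower in Ishikawa cells, where the shares were 32.1%, 40.8% and 72.9%. The members were chosen on this contrast, so nothing is read from these shares. The median log2 fold change of all genes tested was -0.002 in KLE cells and -0.013 in Ishikawa cells.

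The lines were also compared in how far copper moved each gene, as the KLE response minus the Ishikawa response in 1 fit of all 12 libraries, whose values can differ slightly from the gap between the 2 separate fits. DUSP8 differed by -2.43 ± 0.34 and DUSP1 by -1.84 ± 0.13 on the log2 scale, followed by DUSP5 at -0.64 ± 0.10, DUSP16 at -0.43 ± 0.09 and DUSP6 at -0.34 ± 0.08. SPRY2 differed by 0.29 ± 0.07 and SPRY4 by 0.20 ± 0.07, that is, both were lowered less in KLE cells. Of the 9 genes, 2 were called higher, 5 lower and 2 not, where 45.4% of 13663 genes were called, 24.6% higher and 20.8% lower, and again the choice of members used this response. Over all genes 54.1% of these calls were higher, a share that lay between 45.4% (without copper-treated Ishikawa replicate 1) and 64.8% (limma on log2(TPM + 1)) over the alternatives run, so which direction held the majority turned. MAP2K6 differed by -0.22 ± 0.14 and DUSP4 by -0.14 ± 0.20, and neither was called. MAP2K6 was called without copper-treated Ishikawa replicate 2, at -0.35, and DUSP4 changed sign without untreated Ishikawa replicate 1, to 0.07. The SPRY4 difference was lost without any 1 of 7 libraries, with values between 0.14 and 0.25 over all libraries left out: each copper-treated Ishikawa library, untreated Ishikawa replicate 1, copper-treated KLE replicates 2 and 3, and untreated KLE replicate 1.

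Without copper, the 2 lines already differed in all 9 members tested. This contrast compares no copper-treated cells, although its spread comes from all 12 libraries, and was tested with edgeR's quasi-likelihood test, Benjamini-Hochberg adjusted over 13663 genes, of which 50.0% were called, 24.5% higher and 25.6% lower in KLE cells. The nuclear phosphatases DUSP4 and DUSP5 were higher in KLE cells, at 23.0 ± 2.46 CPM against 2.33 ± 0.804 CPM in Ishikawa cells for DUSP4 (log2 fold change 3.23 ± 0.14, edgeR adjusted p = 1.8e-14), and at 90.0 ± 2.12 against 19.4 ± 2.75 CPM for DUSP5 (2.19 ± 0.07, edgeR adjusted p = 3.7e-17; mean ± SD, n = 3 each). Also higher in KLE cells were DUSP8 (1.09 ± 0.26, edgeR adjusted p = 0.0014) and DUSP1 (0.85 ± 0.10, edgeR adjusted p = 1.9e-07). The genes for which untreated Ishikawa cells held more were MAP2K6 (-1.18 ± 0.07, edgeR adjusted p = 9.7e-13), DUSP16 (-0.97 ± 0.06, edgeR adjusted p = 1.1e-11) and SPRY4 (-0.77 ± 0.05, edgeR adjusted p = 2e-12). Smaller differences the same way were seen for DUSP6 (-0.65 ± 0.05, edgeR adjusted p = 6.8e-09) and SPRY2 (-0.48 ± 0.05, edgeR adjusted p = 1.7e-08). For each of these 9 genes, all 3 KLE libraries lay on the same side of all 3 Ishikawa libraries, as they did for 55.1% of all genes tested, 27.2% with KLE higher and 27.9% with KLE lower. The untreated libraries of this comparison are also the controls of the copper responses, so the 2 kinds of value are not independent. The members were chosen with results of these libraries known, so these p-values describe them and are no independent test. Side by side, DUSP4 was 3.23 higher in untreated KLE cells, with copper responses of 1.49 in KLE and 1.72 in Ishikawa cells, and DUSP1 was 0.85 higher, with responses of 0.28 and 2.17.

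On a scale that corrects for gene length, the levels can be compared between genes. Untreated KLE cells had a DUSP6 level of 478 ± 14 TPM, SPRY2 142 ± 1.86, DUSP5 73.6 ± 1.9, SPRY4 68.1 ± 2.62 and MAP2K6 21.3 ± 2.26 TPM (SD, n = 3). DUSP1, DUSP16 and DUSP4 followed at 15.4, 10.6 and 8.49 TPM, and DUSP8 and DUSP10 were below 1 TPM. With copper, DUSP6 and DUSP5 stood close in KLE cells: DUSP6 lay between 122 and 149 TPM and DUSP5 between 114 and 127 TPM, and the libraries overlapped. In Ishikawa cells DUSP6 stayed the most abundant, at 270 ± 15.0 TPM with copper and 761 ± 55.9 TPM without, above SPRY2 at 72.1 ± 2.59 and 206 ± 10.2 TPM.

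Summed over all 10 MKPs (the 7 named here with DUSP2, DUSP7 and DUSP9), phosphatase transcripts amounted to 339 ± 15.9 TPM in copper-treated KLE cells against 611 ± 13.2 TPM in untreated ones, a ratio of 0.554. In Ishikawa cells the sum was 462 ± 18.5 TPM with copper against 833 ± 49.0 TPM without, a ratio of 0.555 (mean ± SD, n = 3 each). Without DUSP6 the direction turned: the other 9 summed to 206 ± 7.27 TPM in copper-treated and 133 ± 1.97 TPM in untreated KLE cells, and in Ishikawa cells to 192 ± 7.46 TPM with copper and 71.7 ± 8.28 TPM without. DUSP6 made up 39.1% ± 2.64 of the sum in copper-treated and 78.2% ± 0.65 in untreated KLE cells, and in Ishikawa cells 58.5% ± 1.46 with copper and 91.3% ± 1.45 without. The remaining share was made up differently in each line. In copper-treated KLE cells DUSP5 held 35.8% and DUSP4 6.9% of the sum, while in copper-treated Ishikawa cells DUSP2 held 17.1%, DUSP5 8.8% and DUSP1 7.59%. The ratios of the sums depend on the TPM scale. On log2(TPM + 1) the median log2 fold change of all genes was -0.157 in Ishikawa and -0.028 in KLE cells. With TMM it was -0.013 and -0.002.

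**Figure D3:**
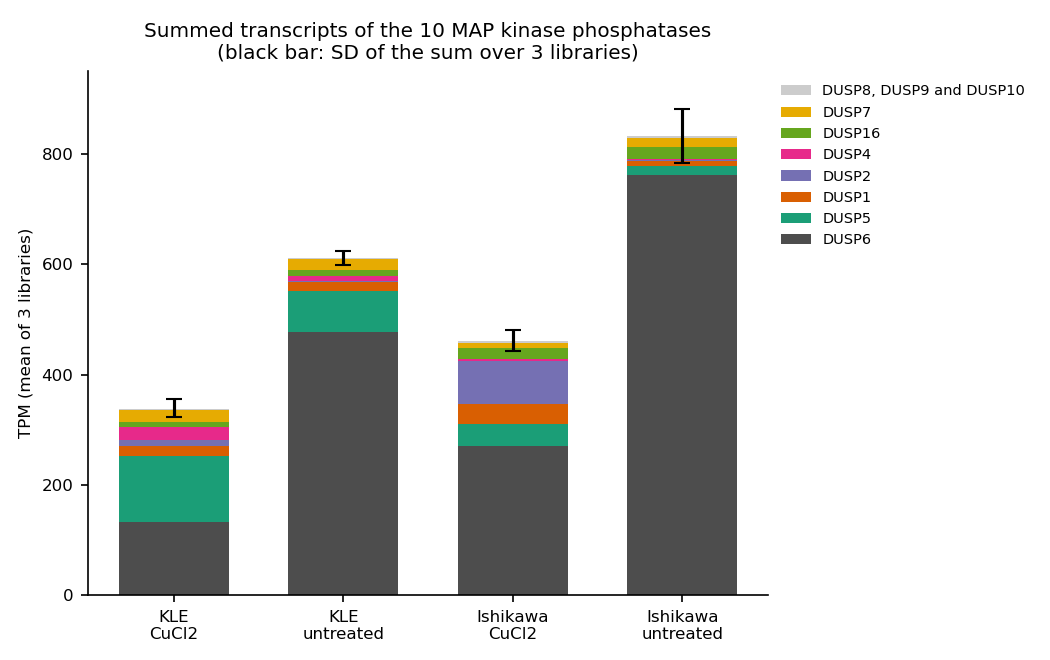
Mean TPM (vertical axis) of the 10 MAP kinase phosphatases stacked per group, with the SD of the sum over 3 libraries (black bars). DUSP6 is the bottom block of every bar and takes 39.1% of the sum in copper-treated KLE cells, 78.2% in untreated KLE cells, 58.5% in copper-treated Ishikawa cells and 91.3% in untreated Ishikawa cells.

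The rest of the pathway was read from 8 lists of other genes, also drawn up with earlier results of these data known. Of their 107 genes, 31 were called higher and 21 lower with copper in KLE cells, of 97 tested, and 39 were called higher and 35 lower in Ishikawa cells, of 99 tested, beside the 50.8% and 69.1% of all genes given above. Their median log2 fold change was -0.01 in KLE cells and 0.0 in Ishikawa cells, close to that of all genes. For the counts per list below, the shares over all genes were 25.6% higher and 25.2% lower in KLE cells. In Ishikawa cells they were 33.8% higher and 35.3% lower. From each list the text names the 2 called genes with the largest change in each line. DUSP7, SPRED1, SPRED2, ETV4, ETV5, MAP2K3, EPHA2, IER3 and MYC were added after their values were seen.

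Of the 3 other MKPs, DUSP2, an inducible nuclear phosphatase, rose in both lines: it averaged 9.18 ± 1.37 CPM in copper-treated and 2.26 ± 1.04 CPM in untreated KLE cells (log2 fold change 1.99 ± 0.22, edgeR adjusted p = 4.5e-07), and 68.7 ± 4.15 CPM in copper-treated and 2.61 ± 1.35 CPM in untreated Ishikawa cells (4.66 ± 0.22, edgeR adjusted p = 4.7e-07; n = 3 each). Without untreated Ishikawa replicate 2 the Ishikawa value was 5.28. DUSP7 and DUSP9 are, like DUSP6, cytoplasmic phosphatases of ERK. DUSP7 rose by 0.22 ± 0.06 in KLE cells (edgeR adjusted p = 0.0045, not called with limma on TPM, at 0.17 and 0.18) and fell by 0.54 ± 0.10 in Ishikawa cells (edgeR adjusted p = 0.00024). DUSP9 was scarce, at 0.614 CPM in copper-treated and 1.22 CPM in untreated KLE cells, and 0.919 CPM in Ishikawa cells with copper, against 2.4 CPM without, and fell in both (-0.99 ± 0.38, edgeR adjusted p = 0.026 in KLE; -1.34 ± 0.30, edgeR adjusted p = 0.0011 in Ishikawa). The KLE call for DUSP9 was lost without copper-treated replicate 1 or 3 (-0.93 each time) and without untreated replicate 2 (-0.97) or 3 (-0.84), and also with DESeq2 (-1.0, adjusted p = 0.099) and with no count filter (-0.99, edgeR adjusted p = 0.052).

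Among the 5 other Sprouty and SPRED genes, which encode inhibitors of RAS to ERK signalling, 1 was called higher and 3 lower in KLE cells, and 2 higher and 3 lower in Ishikawa cells. SPRY1 fell alongside SPRY2 and SPRY4, to 56.2 ± 5.12 CPM in copper-treated against 113 ± 3.08 CPM in untreated KLE cells (-1.01 ± 0.05, edgeR adjusted p = 1.8e-18) and to 58.6 ± 1.75 CPM in copper-treated against 176 ± 3.06 CPM in untreated Ishikawa cells (-1.53 ± 0.05, edgeR adjusted p = 3.1e-12). SPRY3 changed by -0.59 ± 0.17 in KLE and -0.62 ± 0.12 in Ishikawa cells, and the KLE call was lost without copper-treated KLE replicate 3 (-0.43) or untreated KLE replicate 1 (-0.45) and with limma on TPM (-0.29 and -0.43). SPRED3 rose by 2.27 ± 0.24 in Ishikawa cells (edgeR adjusted p = 1e-06) and had -0.11 ± 0.17 in KLE cells (edgeR adjusted p = 0.61), where leaving out copper-treated replicate 3 turned it to 0.05. Its level was low, at 6.16 ± 0.697 CPM in copper-treated and 1.29 ± 0.495 CPM in untreated Ishikawa cells. SPRED1 was called lower (-0.25 in KLE, -0.24 in Ishikawa) and SPRED2 higher (0.22 in KLE, 0.35 in Ishikawa) in both lines. The SPRED1 call was lost in KLE cells with limma on TPM (-0.12 at either pseudocount), and in Ishikawa cells without copper-treated replicate 1 (-0.14) or untreated replicate 1 (-0.22).

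The atypical dual-specificity phosphatases lack the kinase-binding part of the MKPs. In KLE cells 3 of them were called higher and 2 lower of 10 tested, and in Ishikawa cells 3 higher and 3 lower of 11. DUSP14 rose by 0.70 ± 0.09 in KLE cells (edgeR adjusted p = 2.6e-08) and by 0.36 ± 0.11 in Ishikawa cells (edgeR adjusted p = 0.0092), the second lost without copper-treated Ishikawa replicate 3 (0.29), under library totals (0.21) or upper-quartile scaling (0.25), and with limma on TPM (0.15 and 0.16). DUSP23 fell by 1.16 ± 0.19 in Ishikawa cells (edgeR adjusted p = 5.6e-05) and had -0.30 ± 0.13 in KLE cells, which was called without copper-treated KLE replicate 2 (-0.40) and under upper-quartile scaling (-0.34). DUSP19, below 2.5 CPM in every group, was called lower in both lines (-0.88 ± 0.38 in KLE, -0.86 ± 0.27 in Ishikawa), but the KLE call was lost without any 1 of the 6 libraries (-1.08 to -0.57), with DESeq2 (-0.89), with no count filter (-0.88) and with limma on TPM (-0.09 and -0.24), and the Ishikawa call without copper-treated Ishikawa replicate 1 (-0.66).

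The ERK cascade itself, from adaptors to RSK kinases and ELK factors, had 24 genes, of which 8 were called higher and 2 lower in KLE cells and 9 higher and 6 lower in Ishikawa cells. MAP2K1, which encodes the ERK activator MEK1, rose to 116 ± 1.25 CPM in copper-treated against 79.9 ± 1.58 CPM in untreated KLE cells (0.53 ± 0.04, edgeR adjusted p = 1.1e-13) and to 148 ± 4.91 CPM in copper-treated against 75.6 ± 2.65 CPM in untreated Ishikawa cells (1.03 ± 0.05, edgeR adjusted p = 3e-10). ELK3, an ETS factor that ERK phosphorylates, rose by 0.69 ± 0.05 in KLE cells (edgeR adjusted p = 3.2e-16) and fell by 0.57 ± 0.08 in Ishikawa cells (edgeR adjusted p = 9.8e-06). GAB1, an adaptor of receptor signalling, fell by 0.58 ± 0.10 in Ishikawa cells (edgeR adjusted p = 0.00011) and had -0.16 ± 0.09 in KLE cells (edgeR adjusted p = 0.14).

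Around MAP2K6, the p38 cascade held 19 other genes, of which 9 were called higher and 1 lower in KLE cells and 7 higher and 8 lower in Ishikawa cells. MAP2K3, another MAP2K gene of this list, rose by 0.31 ± 0.05 in KLE cells (edgeR adjusted p = 2.6e-06) and by 0.24 ± 0.08 in Ishikawa cells (edgeR adjusted p = 0.016). Among genes that encode kinases downstream of p38, in KLE cells MAPKAPK3 rose by 0.54 ± 0.05 (edgeR adjusted p = 2.2e-13), RPS6KA4 by 0.42 ± 0.06 (edgeR adjusted p = 8.7e-08) and MAPKAPK2 by 0.34 ± 0.04 (edgeR adjusted p = 2e-08). In Ishikawa cells MAPKAPK2 rose by 0.92 ± 0.05 (edgeR adjusted p = 1.2e-09), RPS6KA4 fell by 0.32 ± 0.10 (edgeR adjusted p = 0.013; -0.20 without untreated Ishikawa replicate 2) and MAPKAPK3 had -0.10 ± 0.06 (edgeR adjusted p = 0.16), which was called under library totals, at -0.26. MAP3K6, a stress-activated kinase at the top of the relay, fell by 0.86 ± 0.13 in Ishikawa cells (edgeR adjusted p = 2.3e-05) and had -0.26 ± 0.12 in KLE cells, called under upper-quartile scaling (-0.30).

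In the JNK cascade 4 of 14 genes were called higher and 1 lower in KLE cells, and 7 higher and 4 lower in Ishikawa cells. SPAG9, a scaffold of JNK signalling, rose in both lines, by 0.66 ± 0.05 in KLE (edgeR adjusted p = 1.7e-14) and 1.41 ± 0.05 in Ishikawa cells (edgeR adjusted p = 1e-11). MAPK10, the JNK gene best known from neurons, rose to 6.59 ± 1.77 CPM in copper-treated against 0.747 ± 0.449 CPM in untreated Ishikawa cells (3.31 ± 0.39, edgeR adjusted p = 1.8e-05), and had 1.11 ± 0.207 CPM in copper-treated and 0.748 ± 0.346 CPM in untreated KLE cells (0.59 ± 0.38, edgeR adjusted p = 0.2). MAP3K1 fell in both lines (-0.26 ± 0.06 in KLE, -0.54 ± 0.07 in Ishikawa).

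In KLE cells transcripts that ERK signalling is known to raise were more often called lower than higher, 8 against 2 of 14 tested. In Ishikawa cells 6 were called higher and 6 lower of 14. The median log2 fold change of this list was -0.28 in KLE cells and 0.05 in Ishikawa cells. FOSL1, a FOS family member, rose by 1.07 ± 0.05 in KLE cells (edgeR adjusted p = 4.2e-15) and by 2.80 ± 0.08 in Ishikawa cells (edgeR adjusted p = 8.2e-13). FOS itself fell in KLE cells, to 76.4 ± 17.4 CPM with copper against 192 ± 24.9 CPM untreated (-1.33 ± 0.21, edgeR adjusted p = 0.0075), a call lost under the replicate block. In Ishikawa cells FOS had 121 ± 3.67 CPM with copper and 101 ± 11.9 CPM untreated (0.31 ± 0.07, edgeR adjusted p = 0.0017). The Ishikawa call was not made under library totals, at 0.16, or with limma on TPM, at 0.16 and 0.17. EGR3, an early growth response factor, rose by 2.85 ± 0.16 in Ishikawa cells (edgeR adjusted p = 8.2e-10) and had -0.12 ± 0.21 in KLE cells, while EGR2 was called lower in KLE cells (-1.41 ± 0.39, edgeR adjusted p = 0.0025), a call lost without untreated KLE replicate 1 (-0.93). EGR2 was scarce, at 0.569 ± 0.0248 CPM in copper-treated and 1.55 ± 0.804 CPM in untreated KLE cells. The ETS factors ETV4 and ETV5, used with DUSP6 and SPRY4 as readouts of ERK output, fell in both lines: ETV4 had log2 fold changes of -0.62 ± 0.05 in KLE and -1.23 ± 0.07 in Ishikawa cells, and ETV5 of -0.27 ± 0.04 in KLE and -0.38 ± 0.04 in Ishikawa cells. MYC also fell, with -0.48 ± 0.05 in KLE and -1.67 ± 0.05 in Ishikawa cells. EPHA2 was called higher in both lines (0.19 ± 0.03 in KLE, 0.35 ± 0.11 in Ishikawa). IER3 rose by 1.73 ± 0.16 in Ishikawa cells and was not called in KLE cells (0.12 ± 0.08). Only RNA was sequenced, so ERK activity itself was not measured.

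Other negative regulators went both ways, with 2 called higher and 3 lower of 8 tested in KLE cells and 4 higher and 3 lower of 9 in Ishikawa cells. ERRFI1, an inhibitor of the EGF receptor, rose by 0.54 ± 0.04 in KLE cells (edgeR adjusted p = 1.2e-16) and by 1.64 ± 0.05 in Ishikawa cells (edgeR adjusted p = 1.9e-12). IL17RD, a membrane inhibitor of FGF and ERK signalling, fell by 1.05 ± 0.09 in KLE cells (edgeR adjusted p = 2.6e-12) and by 1.59 ± 0.15 in Ishikawa cells (edgeR adjusted p = 2.4e-07). PTPRR, a tyrosine phosphatase of MAP kinases, was called higher in Ishikawa cells at under 1 CPM (1.93 ± 0.51, edgeR adjusted p = 0.0035) and was not tested in KLE cells.

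For 4 members the 3 genes with the most similar profile over the 12 libraries were found among 12530 candidates, by the root mean square difference of log2 CPM about each gene's own mean. MAP2K6 was nearest to ISM2 (0.243), PPP1R1B (0.354) and STAC2 (0.37). PPP1R1B, which encodes the phosphatase inhibitor DARPP-32, was the abundant one of these, with a mean of 41.8 CPM in copper-treated and 216 CPM in untreated KLE cells, and 144 CPM in Ishikawa cells with copper, against 531 CPM without. DUSP6 was nearest to the transcription factor SOX4 (0.13), SNED1 (0.155) and VASH2 (0.159), with SOX4 at 24.6 CPM in copper-treated and 78.9 CPM in untreated KLE cells, and 42.5 CPM in Ishikawa cells with copper, against 121 CPM without. DUSP8 was nearest to PPP1R15A (0.201), PTGS2 (0.201) and SESN2 (0.214). For this search 0.5 CPM was added to every gene before the log. With libraries at 0.723 to 6.2 CPM, the changes of DUSP8 were shrunk by it more than those of abundant genes. How far the match rests on that was not tested. PPP1R15A, which encodes a stress-induced phosphatase subunit, averaged 230 CPM in copper-treated and 145 CPM in untreated KLE cells, and 403 CPM in Ishikawa cells with copper, against 83.1 CPM without. SPRY4 was nearest to TGIF2 (0.0686), GRINA (0.0953) and NFIC (0.0959).

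DUSP4 lies on chromosome 8 and DUSP8 on chromosome 11. On GRCh38.p14 the other annotated genes lie at chr5:172768096-172771195 (DUSP1, minus strand), chr10:110497907-110511533 (DUSP5, plus), chr12:89347235-89352501 (DUSP6, minus), chr1:221701424-221742089 (DUSP10, minus), chr12:12473282-12562863 (DUSP16, minus), chr13:80335976-80341126 (SPRY2, minus), chr5:142310430-142325021 (SPRY4, minus) and chr17:69414697-69553865 (MAP2K6, plus). Annotated genes on the opposite strand overlap DUSP1, DUSP6, DUSP8 (KRTAP5-AS1), DUSP16, SPRY4 (SPRY4-AS1) and MAP2K6. Whether the authors' counting used strand is not given in the sources used here, so reads of these pairs cannot be told apart. MAP2K6 is also overlapped on its own strand, by AC015920.1, where counting by strand would not separate the reads.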

How the data were processed

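The labels' protocols give TRIzol extraction, oligo(dT) selection and paired-end NovaSeq reads. The submitters' processing notes list build GRCh38.p14 and the tools fastp (0.18.0), Bowtie2 (2.2.8), HISAT2 (2.1.0), R (4.2.2), RSEM and DESeq2, without the role of each. The authors deposited expected counts with TPM, and raw count tables that hold the same counts rounded to whole numbers. The files named after FPKM have TPM in their headers and values.

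Whole counts were tested with edgeR 4.0.16 under R 4.3.3, using TMM factors, its default filter on low counts and the robust quasi-likelihood test, with p two-sided and adjusted by Benjamini-Hochberg over every gene tested, and calls at an adjusted p under 0.05. The fit was tested on simulated data. Copper responses used the 6 libraries of a line; both comparisons of lines used all 12. An SE is the absolute log2 fold change divided by the square root of F; at few counts it is an underestimate. CPM use TMM factors, and TPM served for levels between genes. Promoters come from RefSeq on GRCh38.p14 (8 members searched, without DUSP4 and DUSP5), overlaps and pseudogenes from GENCODE by Ensembl ID.

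Members, lists and rules were chosen with earlier results of these data known, and motifs with the promoters in view. Named genes were the members, 2 called genes per list and line by size of change, and the 3 nearest profiles (0.5 CPM added; mean of 1 CPM or more). Other settings tried were 3 scalings (RLE, upper quartile, totals), 2 filters (none, or 1 CPM in 3 libraries), DESeq2 1.42.0, limma 3.58.1 with voom or on log2(TPM + 1) and log2(TPM + 0.1), a replicate block, and each library left out. Replicates of a group differed beyond counting noise. Untreated Ishikawa replicate 2 stood furthest from its group, with a chi-square of counts per degree of freedom of 8.45 and 12.85. All other pairs lay between 2.05 and 3.95.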

Additional observations from a re-analysis of the deposited data

Results flagged for a closer look

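These results differed between the lines: the copper response in KLE cells minus that in Ishikawa cells passed edgeR's contrast of all 12 libraries (adjusted p under 0.05), with values on the log2 scale. The members were chosen with this response known, so their calls are a description and no independent test. Among them the difference was -2.43 for DUSP8, -1.84 for DUSP1, -0.64 for DUSP5, -0.43 for DUSP16, -0.34 for DUSP6, 0.29 for SPRY2 and 0.20 for SPRY4.

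In the MAPK lists of other genes 30 were called higher and 26 lower, of 100 tested. Over all 13663 genes tested 24.6% were called higher and 20.8% lower. The list genes named in the report are given here. The response in KLE cells was lower for EGR3 (-2.92), MAPK10 (-2.65), DUSP2 (-2.61), SPRED3 (-2.32), FOSL1 (-1.67), EGR2 (-1.67), FOS (-1.58), IER3 (-1.56), ERRFI1 (-1.05), SPAG9 (-0.70), MAPKAPK2 (-0.53) and MAP2K1 (-0.44). It was higher for ELK3 (1.32), MYC (1.24), DUSP23 (0.92), DUSP7 (0.82), RPS6KA4 (0.80), MAPKAPK3 (0.70), ETV4 (0.67), MAP3K6 (0.66), IL17RD (0.60), SPRY1 (0.58), GAB1 (0.48), DUSP14 (0.40), MAP3K1 (0.33) and ETV5 (0.16). A higher value can mean a smaller fall, as for SPRY1 (-1.01 in KLE, -1.53 in Ishikawa). Without untreated Ishikawa replicate 2 the DUSP2 difference was -3.24. The call for EGR2 was lost without untreated KLE replicate 1 (-1.22), that for IL17RD without copper-treated Ishikawa replicate 2 (0.46), and those for GAB1 (0.35) and MAP3K1 (0.21) without copper-treated Ishikawa replicate 1. DUSP14 lost it without any 1 of 6 libraries: copper-treated Ishikawa replicate 1 (0.37) or 2 (0.26), untreated Ishikawa replicate 2 (0.36), copper-treated KLE replicate 1 (0.35) or 3 (0.32), or untreated KLE replicate 1 (0.27). It was also lost with RLE factors and DESeq2 (0.36 each). ETV5 lost its call with RLE factors or DESeq2 (0.12 each), with no count filter (0.14), and without any 1 of 8 libraries, with values between 0.10 and 0.16: each copper-treated Ishikawa library, untreated Ishikawa replicate 1, copper-treated KLE replicates 2 and 3, and untreated KLE replicates 1 and 2. With limma on TPM the calls for GAB1 (0.26 and 0.29) and IL17RD (0.39 and 0.69) were lost.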

How the results depend on the processing

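Of the members and the list genes named in the report, no called change turned its direction under any alternative run. MAP2K3, EPHA2, IER3 and MYC were not followed under the alternatives and are left out of this. All member calls in Ishikawa cells and between the untreated lines held under every alternative. In KLE cells the DUSP1 call was also lost with DESeq2 (0.28) and with limma on TPM (0.23 and 0.24). Between the responses, the DUSP4 difference, not called, was 0.38 with limma on log2(TPM + 1), DUSP16 was lost with limma on TPM (-0.23 and -0.26), and SPRY4 with RLE factors and DESeq2 (0.16 each). Counts of list genes moved in few places: those called higher numbered 23 in Ishikawa cells (39 in the counts) and 18 in KLE cells (31) with limma on log2(TPM + 1), and the same 23 and 18 on log2(TPM + 0.1), while those called lower between the responses numbered 17 with library totals (26 with TMM). The cause was not tested. The balance of calls moved with the setting: 48.9% of those in Ishikawa cells were higher with TMM, 39.0% with upper quartiles, 35.7% with library totals and 34.8% with limma on TPM, and the median of all genes there was -0.167 with library totals. Between the responses 54.1% were higher with TMM, 63.9% with library totals and 64.8% with limma on log2(TPM + 1), but 47.9% with RLE factors, 46.2% with DESeq2 and 48.9% with no count filter. There the share was also 45.4%, 45.9% and 46.3% without copper-treated Ishikawa replicate 1, 2 and 3, 47.4% without copper-treated KLE replicate 3 and 47.0% without untreated KLE replicate 1. Whether replicate numbers pair the samples was not settled. Same-numbered libraries had correlations of 0.05, 0.17 and 0.08 in Ishikawa cells and -0.06, -0.04 and -0.08 in KLE cells. Differently numbered ones lay between -0.15 and 0.08 in Ishikawa cells and between -0.01 and 0.07 in KLE cells. Under the replicate block no member call changed (MAP2K6 -2.87 in KLE cells), and FOS (-1.34) and DUSP19 (-0.89) lost theirs in KLE cells. Depth limits DUSP10, with at most 7 counts per library, and widens the error of DUSP8.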
